A study of Mus musculus with 33 samples.

Results

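Costimulatory receptors give a T cell the signals that decide what follows antigen recognition, and CD40 ligand is the signal that an activated helper T cell returns to antigen-presenting cells and B cells. The 8 genes described here are 7 receptors and 1 ligand of this kind: *Cd28*, *Icos*, *Cd27*, *Cd40lg*, *Tnfrsf4* (OX40), *Tnfrsf9* (4-1BB), *Tnfrsf18* (GITR) and *Tnfrsf1b* (TNFR2). They were chosen by symbol, as the rows whose Ensembl identifier carries that symbol on GRCm38, out of 31054 features counted by RNA-Seq in mice tolerant of an islet xenograft. Each symbol matched 1 row, and all 8 passed the filter on low counts.

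CD28 and ICOS belong to the immunoglobulin superfamily. CD28 binds CD80 and CD86, which CTLA-4 also binds, and ICOS binds ICOS ligand. CD27, OX40, 4-1BB, GITR and TNFR2 are members of the TNF receptor superfamily, signal through TRAF adaptors to NF-kB, and bind CD70, OX40 ligand, 4-1BB ligand, GITR ligand and TNF. OX40, GITR, TNFR2 and 4-1BB are known as receptors of Tregs, whereas CD40 ligand, also named CD154, is known from activated conventional CD4+ T cells. Both agents given to the tolerant mice act on these pathways: CTLA4-Fc occupies CD80 and CD86, and MR1 is an antibody against CD154.

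All cells came from DEREG mice on a C57BL/6 background, which carry a transgene for the diphtheria toxin receptor and EGFP under the Foxp3 promoter, so that Tregs were sorted by GFP. Tolerant mice had 4000 islet equivalents of porcine neonatal islet cell clusters (NICC) placed under the renal capsule, 500 µg of MR-1 on days 0, 2, 4 and 6 and 500 µg of CTLA4-Fc on day 0, and were studied at day 100. Naive mice had neither a transplant nor the treatment. The 11 subsets, with 3 libraries each, were CD45+CD4- cells and Foxp3- CD4+ T cells from the spleen (SP) of naive and tolerant mice, SP/naive Tregs, CD127-/lo and CD127hi Tregs of the tolerant spleen, graft Tregs, and, from the graft-draining lymph node (DLN), naive, CD127-/lo and CD127hi Tregs. The CD45+CD4- cells were splenocytes depleted of CD4+ cells with microbeads and then sorted on CD45, so that they hold B cells, CD8+ T cells, NK and myeloid cells together. Each library is described as a pool of several mice, and the naive mice were too few for 3 separate pools, so that p-values measure the spread between libraries, which may in part be technical. The graft, the agents and the tolerant state came together in these mice and cannot be told apart.

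Levels are given as CPM, read pairs of a gene relative to a library size scaled by TMM, a method that sets the libraries to a common level from the bulk of the genes. Between 2550698 and 4615283 read pairs were counted on genes in the 24 spleen and graft libraries, and between 844039 and 1935323 in the 9 DLN libraries, which were run on another sequencer than the rest, and here the effects of tissue and sequencer cannot be told apart. A count of 3, the most that a count of 0 allows, corresponded to at most 1.18 CPM in a spleen or graft library and to at most 3.55 CPM in a DLN library. Both limits are relative to the library size before TMM scaling. After it, a count of 3 was 2.99 CPM in DLN/CD127-/lo replicate 2, the library with the 3.55 CPM. These limits and the intervals below cover counting error only. *Foxp3* averaged between 205.5 and 600.1 CPM in the 7 Treg subsets and between 0.501 and 2.97 CPM in the 4 others. *Il7r*, which encodes CD127, was higher in SP/CD127hi than in SP/CD127-/lo Tregs (log2 fold change 1.92, SE 0.37, adjusted p = 0.00163), but in the DLN the difference was 0.19 (SE 0.36, adjusted p = 0.972), so that the RNA does not separate the DLN subsets by the marker they were sorted on. *Xist*, the RNA of the inactive X chromosome, was at 404.7 and 458.9 CPM in DLN/naive replicates 1 and 2 and at no more than 2.99 CPM in the other 7 DLN libraries. The Y-linked *Ddx3y* was at 2.84 and 16.1 CPM in those libraries and at 138.9 CPM in DLN/naive replicate 3, although the methods give female naive lymph node mice, and tolerant mice were male. Sex and tolerance can therefore not be told apart for DLN/naive replicates 1 and 2. Replicate 2 of naive CD4+ cells stood apart with 20097 genes detected, against 13611 and 14716 in replicates 1 and 3. The kidney epithelial markers summed to 116.7, 890.2 and 15.8 CPM in the 3 graft libraries and to no more than 19.9 CPM in any other.

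Each of the 8 genes differed among the 8 spleen and graft subsets (edgeR quasi-likelihood F test over all genes, Benjamini-Hochberg adjusted), which 13.4% of all genes tested did. Adjusted p ran from 6.05e-48 for *Tnfrsf4* to 0.0166 for *Tnfrsf1b*, which was lost without tolerant CD4+ replicate 3 (0.0551). The lowest level lay in tolerant CD45+CD4- cells for 7 genes, and in tolerant CD4+ cells for *Tnfrsf1b*. The highest spleen or graft level lay in CD4+ cells for *Cd28*, *Cd27* and *Cd40lg* and in a Treg subset for the other 5.

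**Figure D1:**
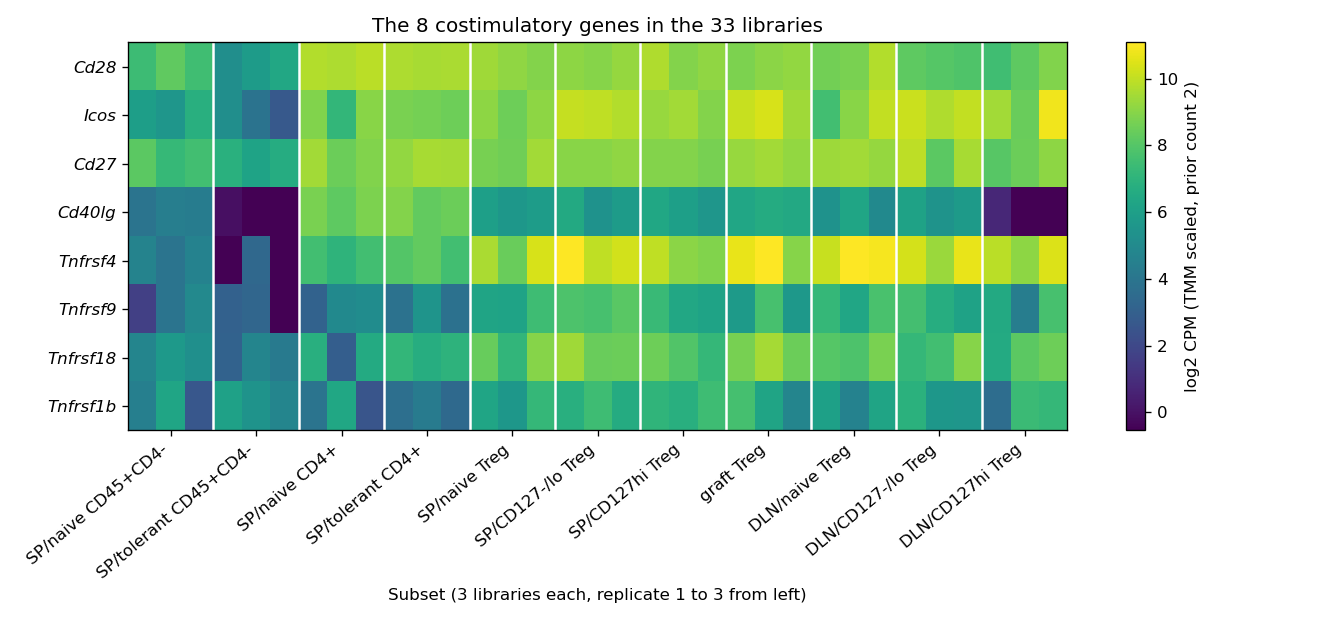
Heat map of the log2 CPM (prior count 2) of the 8 genes in the 33 libraries, with genes in rows and libraries in columns, 3 per subset. *Cd40lg* is brightest in the CD4+ libraries and darkest in tolerant CD45+CD4- and DLN/CD127hi libraries, and *Tnfrsf4* is brightest in Treg libraries.

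Reads per gene also depend on transcript length, so genes were compared with each other only as CPM per kb of merged exons. On this scale *Cd40lg* was the highest of the 8 genes in naive CD4+ cells (311.2 ± 63.8 CPM per kb, SD, n = 3) and in tolerant CD4+ cells (306.0 ± 71.1), just ahead of *Cd27* at 219.6 ± 75.0 and 295.4 ± 38.0. *Tnfrsf4* ranked first in each of the 7 Treg subsets, with means from 493.7 CPM per kb in SP/CD127hi to 1278 CPM per kb in DLN/naive Tregs. *Cd27* led in both CD45+CD4- subsets, at 88.8 ± 29.3 in naive and 40.9 ± 8.36 CPM per kb in tolerant mice. *Tnfrsf9* and *Tnfrsf1b* were the lowest 2 genes in CD4+ cells of either kind, none of which exceeded a mean of 8.99 CPM per kb.

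**Figure D2:**
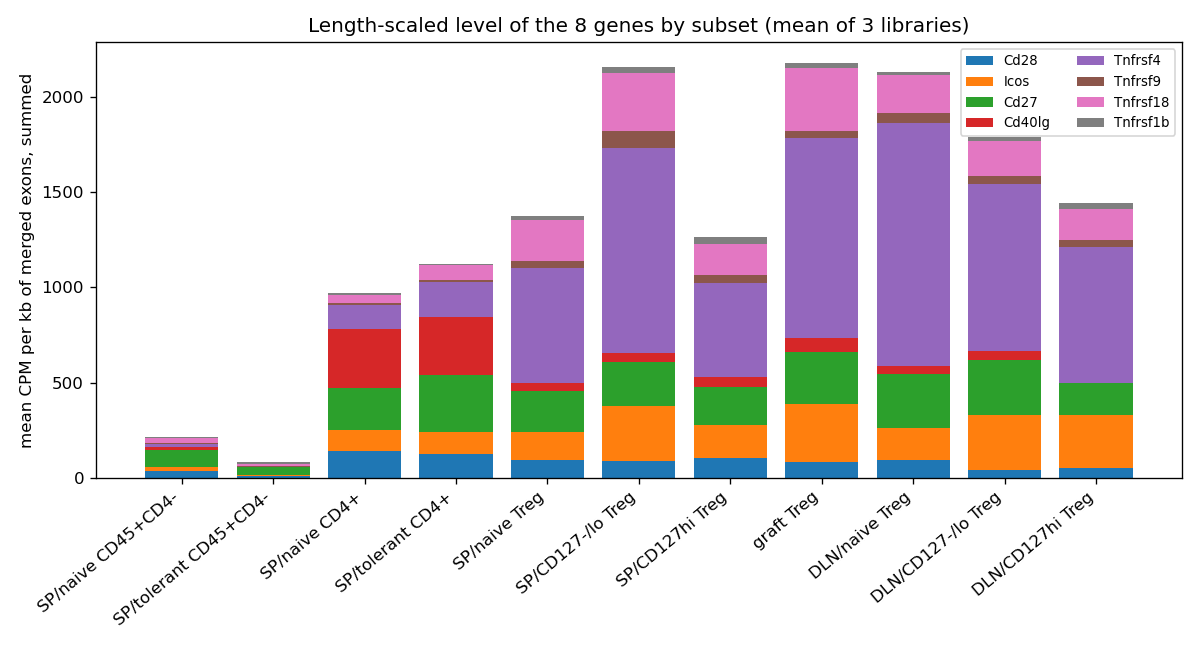
Stacked bars of the mean CPM per kb of merged exons of the 8 genes in each of the 11 subsets (3 libraries each). The sum is 972 and 1123 CPM per kb in naive and tolerant CD4+ cells, with *Cd40lg* as the largest part, and between 1265 and 2179 CPM per kb in the Treg subsets, with *Tnfrsf4* as the largest part.

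*Cd28*, the receptor of the first costimulatory signal, lies at chr1:60716800-60773359 (GRCm38, plus strand) upstream of *Icos* at chr1:60977927-61000320, with 204.57 kb between them. In naive CD4+ cells *Cd28* was at 862.9, 817.4 and 948.5 CPM, and in tolerant CD4+ cells at 803.8, 752.8 and 772.3 CPM. These 6 libraries held a narrow range. All tolerant values lay below all naive ones, but the difference did not pass the test (log2 fold change -0.17, SE 0.40). In Tregs of spleen and graft the 4 subset means ran from 523.9 to 629.0 CPM, and neighbouring subsets overlapped. In DLN/CD127-/lo Tregs it was at 290.5, 262.8 and 233.1 CPM, below all 3 DLN/naive libraries at 386.3, 434.4 and 870.2 CPM, but the difference did not pass the test (log2 fold change -1.10, SE 0.40, adjusted p = 0.306). *Icos*, which is induced on activated T cells and is high on effector Tregs, ran the other way. Its highest means lay in graft Tregs (1038 ± 316 CPM), DLN/CD127-/lo Tregs (994 ± 158 CPM) and SP/CD127-/lo Tregs (982 ± 117 CPM), and its naive and tolerant CD4+ means were 376 ± 202 and 398 ± 33.9 CPM. Replicate 2 of naive CD4+ cells, at 143.5 CPM, was far under the 471.8 and 512.1 CPM of the other two. *Cd27*, a receptor of resting T cells, lay at chr6:125232622-125237010 on the minus strand and varied least among T cells, with means between 392.3 and 687.7 CPM in the 9 CD4+ and Treg subsets.

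**Figure D3:**
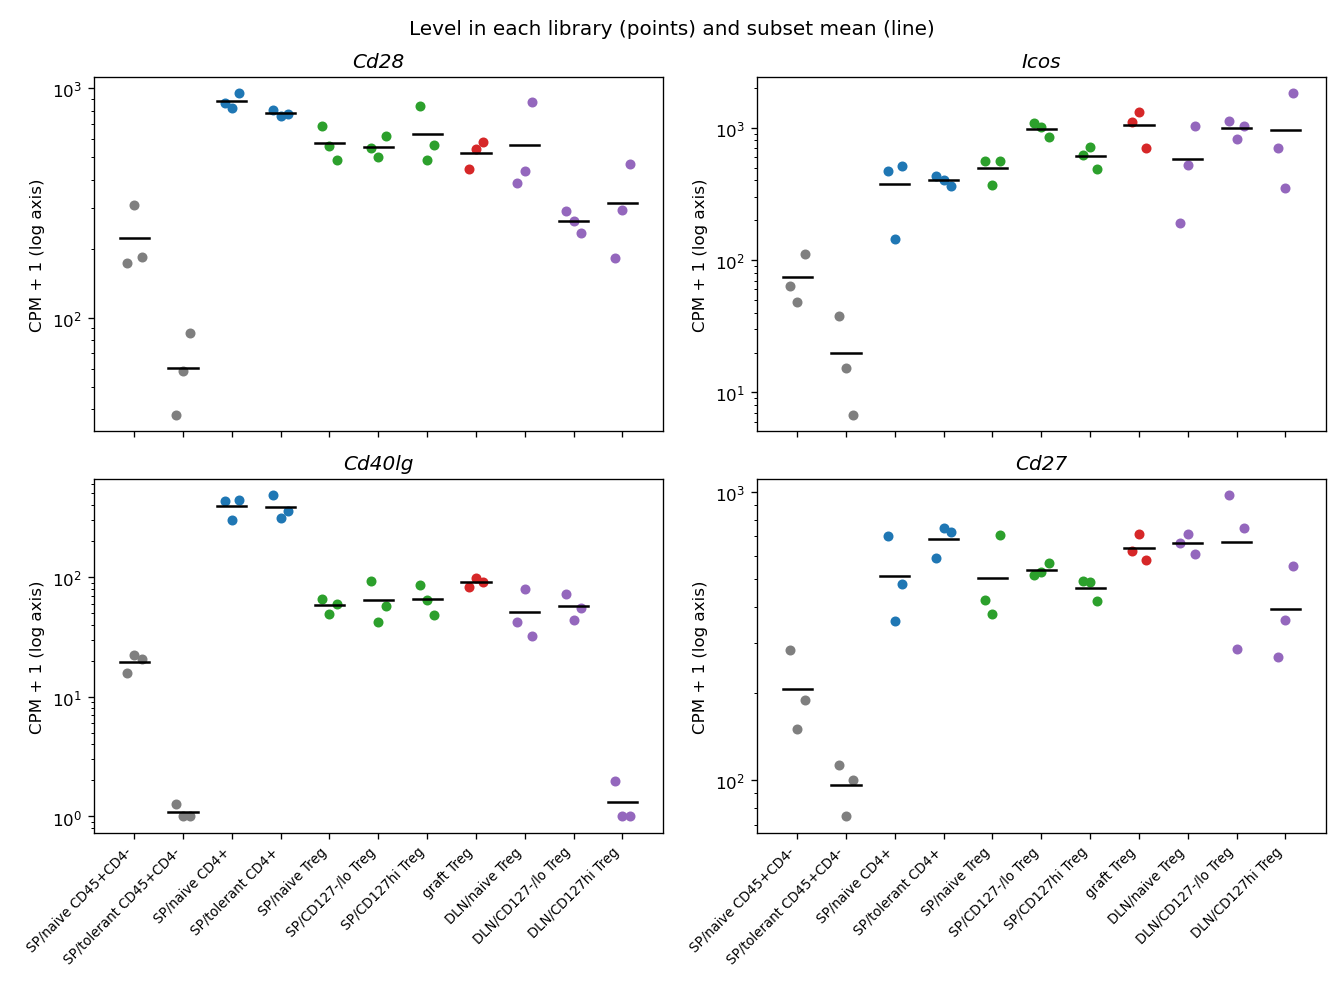
CPM + 1 on a log axis of *Cd28*, *Icos*, *Cd40lg* and *Cd27* in each library (points) with the subset mean (line), for 11 subsets of 3 libraries, coloured by cell type and tissue. *Cd40lg* sits between 297.4 and 482.1 CPM in the 6 CD4+ libraries, between 31.0 and 98.0 CPM in Treg libraries other than DLN/CD127hi, and at 0 or 1 count in DLN/CD127hi and tolerant CD45+CD4- libraries.

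*Cd40lg* encodes CD154, the target of MR1, and lies on the X chromosome at 57212143-57224042 (plus strand). In naive CD4+ cells it was at 426.9, 297.4 and 442.7 CPM, and in tolerant CD4+ cells at 482.1, 311.7 and 353.6 CPM. The 2 groups overlapped, and at day 100 after transplantation its RNA in CD4+ T cells did not pass the test for a difference (log2 fold change -0.02, SE 0.67, adjusted p = 1). The 4 spleen and graft Treg subsets had means from 57.3 ± 8.27 CPM in SP/naive Tregs to 89.4 ± 8.37 CPM in graft Tregs. All 12 of these libraries lay below all 6 CD4+ libraries. DLN/naive Tregs (41.2, 78.5 and 31.0 CPM) and DLN/CD127-/lo Tregs (71.4, 42.8 and 54.0 CPM) lay in the same range as the splenic Tregs, except for DLN/naive replicate 3. Its 31.0 CPM was below the lowest splenic Treg value of 40.8 CPM.

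In CD45+CD4- cells, 4 of the 8 genes fell in tolerant mice, *Cd40lg*, *Tnfrsf4*, *Icos* and *Cd28*, whereas 0.0355% of all genes were called, and none rose. In CD4+ T cells 0 of the 8 were called, against 0.107% of all genes, and 0 of the 8 had an unadjusted p under 0.05 (0 also with the likelihood ratio test and with DESeq2). *Cd40lg* was at 14.7, 21.2 and 19.6 CPM in naive and at 0.276, 0 and 0 CPM in tolerant CD45+CD4- libraries. The tolerant libraries held 1 read pair of this gene together, against 174 in the naive ones, a ratio of 188 with a 95% interval from 33.3 to 7467 by exact conditional binomial limits (log2 fold change -7.05, SE 1.03, adjusted p = 7.06e-07). *Tnfrsf4* was at 24.4, 14.7 and 23.8 CPM in naive and at 0, 9.62 and 0 CPM in tolerant libraries (log2 fold change -2.67, SE 0.45, adjusted p = 7.89e-05). The groups did not overlap for either gene. The 9.62 CPM came from tolerant replicate 2, and without that library the log2 fold change of *Tnfrsf4* was -8.95.

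*Icos* was at 62.9, 47.0 and 110.7 CPM in naive and at 36.7, 14.3 and 5.77 CPM in tolerant CD45+CD4- cells (log2 fold change -1.95, SE 0.42, adjusted p = 0.0169). *Cd28* was at 172.9, 307.8 and 182.9 CPM in naive and at 36.7, 57.4 and 84.5 CPM in tolerant ones (log2 fold change -1.89, SE 0.41, adjusted p = 0.0198). Neither gene's groups overlapped. The groups of *Cd27* (log2 fold change -1.12, SE 0.40, adjusted p = 0.747) and *Tnfrsf18* (-1.17, SE 0.55, adjusted p = 1) did not overlap either, with lower tolerant values, but they missed the threshold. *Tnfrsf9* was at 2.44, 14.3 and 30.3 CPM against 7.73, 9.07 and 0 CPM and *Tnfrsf1b* at 21.4, 77.6 and 5.47 CPM against 69.3, 42.0 and 26.5 CPM, and their groups overlapped. The change differed between the cell types, tested as an interaction in the same fit, for *Cd40lg* (7.02 on the log2 scale, SE 1.23, adjusted p = 0.00024) and *Tnfrsf4* (3.24, SE 0.61, adjusted p = 0.000983), 2 of 8 genes against 0.0473% of all genes. The *Tnfrsf4* interaction was lost in 5 of 10 other ways of testing (adjusted p up to 0.863) and that of *Cd40lg* in 1, a newer form of the quasi-likelihood fit (legacy = FALSE, 0.402).

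Most markers of T cells, CD8 T cells included, and of Tregs moved with this result. The 4 Treg markers summed to between 168.0 and 236.1 CPM in naive and to between 54.3 and 109.4 CPM in tolerant libraries. *Foxp3* (-2.23, SE 0.73) and *Il2ra* (-0.76, SE 0.53) were lower and *EGFP* was higher (1.90, SE 1.32), all without a call. *Ikzf2* was called lower (-1.27, SE 0.22, adjusted p = 0.000203), 1 of the 9 genes called in this comparison. The others beside the 4 genes were *Izumo1r* (-2.97, adjusted p = 0.000282), *Maf* (-2.87, adjusted p = 1.86e-05), *Ms4a4b* (-1.05, adjusted p = 0.0106) and *Malat1* (-1.02, adjusted p = 7.06e-07), a nuclear RNA of most cell types. These others were all named after their values were seen. The 2 CD8 T cell markers summed to between 369.7 and 759.8 CPM in naive and to between 224.5 and 324.9 CPM in tolerant libraries. The 11 T cell markers summed to between 2285 and 3592 CPM in naive and to between 1308 and 1718 CPM in tolerant CD45+CD4- libraries, and 10 of the 11 were lower in tolerant libraries, with a median log2 fold change of -0.89 over the list against 0 over all genes. None of these 11 passed the test. *Cd4* itself was at 11.3, 33.6 and 26.7 CPM in naive and at 12.98, 0 and 15.3 CPM in tolerant libraries, far under its mean of 308.0 CPM in naive CD4+ cells, and the B cell markers were higher in tolerant libraries, with sums of 4743 to 6158 against 2784 to 4472 CPM. In bulk cells, fewer T cells and less RNA per cell cannot be told apart. Set against *Cd3e*, a ratio that was added after the values were seen, *Cd40lg* was at 0.111, 0.160 and 0.106 in naive and at 0.00339, 0 and 0 in tolerant libraries, *Tnfrsf4* at 0.185, 0.111 and 0.129 against 0, 0.125 and 0, *Icos* at 0.477, 0.355 and 0.597 against 0.451, 0.186 and 0.0683, and *Cd28* at 1.31, 2.33 and 0.986 against 0.451, 0.746 and 1. Of these 4 called genes, the *Cd40lg* ratios alone were free of overlap. The part of these markers' cells in the result was not tested. The calls of *Cd28*, *Icos* and *Tnfrsf4* were lost with edgeR's likelihood ratio test and with robust estimation, and adjusted p reached 0.853, 0.853 and 0.8 over the other ways of testing. The *Cd40lg* call was lost with legacy = FALSE and with the compared libraries alone (up to 0.18). *Cd28* was also lost without naive replicate 2 or without tolerant replicate 1 or 2 (adjusted p up to 0.739), and *Icos* without naive replicate 3 or without tolerant replicate 2 or 3 (up to 1).

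**Figure D4:**
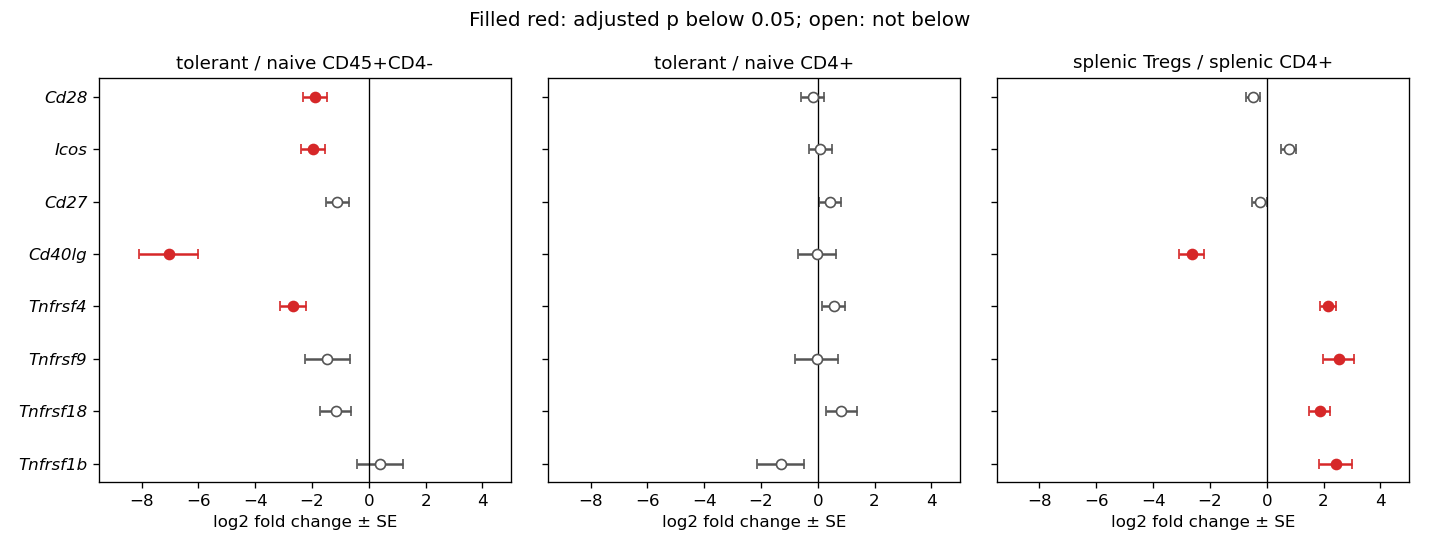
Log2 fold change with its standard error for the 8 genes in 3 comparisons, where red filled points had an adjusted p below 0.05 and open points did not. In CD45+CD4- cells 4 genes are red and lie left of 0, in CD4+ cells none is red, and in splenic Tregs against splenic CD4+ cells 4 are red on the right and *Cd40lg* on the left.

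Naive mice alone gave the background for these levels. *Cd40lg*, *Tnfrsf4*, *Icos* and *Cd28* were the 4 of 8 genes called between CD4+ T cells and CD45+CD4- cells, each higher in the CD4+ cells, against 1.04% of all genes. The log2 fold changes were 4.39 (SE 0.78, adjusted p = 1.85e-05) for *Cd40lg*, 3.02 (SE 0.44, adjusted p = 4.64e-08) for *Tnfrsf4*, 2.35 (SE 0.42, adjusted p = 2.39e-05) for *Icos* and 1.99 (SE 0.41, adjusted p = 0.000646) for *Cd28*. They are the same 4 genes that were lower in tolerant CD45+CD4- cells. The *Cd28* call was lost with the likelihood ratio test (adjusted p = 0.0568), and those of *Icos* and *Tnfrsf4* with robust estimation (0.0839 and 0.192). The naive CD45+CD4- libraries entered both comparisons.

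Between Tregs and CD4+ T cells, 4 of the 5 TNF receptors, all but *Cd27*, were higher in Tregs, and CD40 ligand was lower. The mean of the 3 splenic Treg subsets was set against the mean of both splenic CD4+ subsets, 9 libraries against 6, and 5 of the 8 genes were called, against 1.83% of all genes. *Tnfrsf4* (log2 fold change 2.17, SE 0.28, adjusted p = 5.94e-10), *Tnfrsf9* (2.54, SE 0.54, adjusted p = 0.000963), *Tnfrsf18* (1.86, SE 0.37, adjusted p = 0.000271) and *Tnfrsf1b* (2.42, SE 0.58, adjusted p = 0.00574) were higher in Tregs. *Cd40lg* was lower in Tregs (-2.64, SE 0.44, adjusted p = 2.95e-06). The myeloid markers *Lyz2*, *Csf1r* and *C1qc* were also called higher in these Treg libraries, with values given beside *Cd86*, and *Tnfrsf1b*, which myeloid cells also express, averaged 34.8 and 46.0 CPM in naive and tolerant CD45+CD4- cells. Their part in the *Tnfrsf1b* result was not tested. *Icos* (0.78, SE 0.26, adjusted p = 0.121), *Cd28* (-0.49, SE 0.25, adjusted p = 0.528) and *Cd27* (-0.25, SE 0.26, adjusted p = 1) did not pass. The call of *Tnfrsf4* was lost with a robust fit, which weights down genes of unusual spread (adjusted p = 0.0664).

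**Figure D5:**
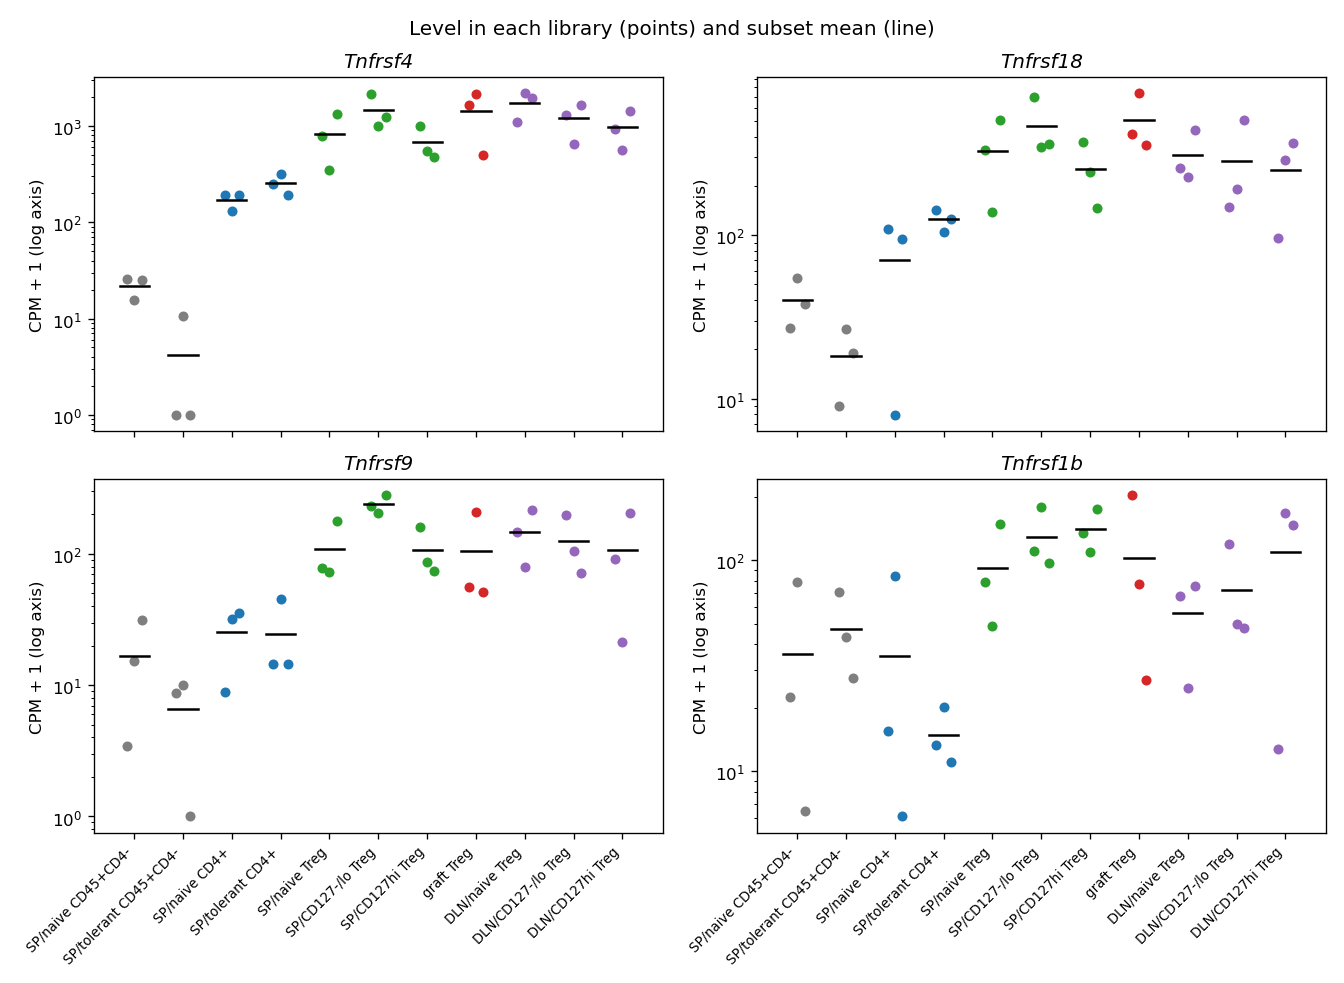
CPM + 1 on a log axis of *Tnfrsf4*, *Tnfrsf18*, *Tnfrsf9* and *Tnfrsf1b* in each library (points) with the subset mean (line), for 11 subsets of 3 libraries. All *Tnfrsf4* values of Treg libraries, at 348.1 CPM or more, lie above all CD4+ values, at 316.2 CPM or less, and the points of *Tnfrsf1b* overlap widely.

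*Tnfrsf4* encodes OX40, a receptor of activated T cells that Tregs carry at rest, and was at 190.3, 130.5 and 190.0 CPM in naive and at 250.3, 316.2 and 190.6 CPM in tolerant CD4+ cells. It was at 780.5, 348.1 and 1327 CPM in SP/naive Tregs, at 2166, 990.4 and 1246 CPM in SP/CD127-/lo Tregs and at 1001, 541.7 and 478.8 CPM in SP/CD127hi Tregs. Graft Tregs held 1660, 2139 and 503.5 CPM, the largest SD in CPM of any subset (841 CPM). *Tnfrsf18*, which encodes GITR, was at 108.6, 6.97 and 93.2 CPM in naive CD4+ cells, where the low value is that of replicate 2, and at 141.8, 104.2 and 124.9 CPM in tolerant ones. It was at 331.2, 138.0 and 507.4 CPM in SP/naive, 695.0, 344.7 and 357.6 CPM in SP/CD127-/lo, and 416.0, 733.8 and 356.0 CPM in graft Tregs. All Treg libraries of spleen and graft except SP/naive replicate 2 lay above all CD4+ libraries.

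*Tnfrsf9* encodes 4-1BB, which is induced by antigen and marks recently stimulated Tregs. It was at 7.87, 31.0 and 34.5 CPM in naive and at 13.4, 44.4 and 13.4 CPM in tolerant CD4+ cells, against 231.4, 204.6 and 279.7 CPM in SP/CD127-/lo Tregs, its highest subset. *Tnfrsf1b*, a TNF receptor of lymphocytes and myeloid cells, reached its highest mean in SP/CD127hi Tregs, with 133.3, 108.7 and 174.6 CPM, and its lowest in tolerant CD4+ cells, with 12.3, 19.2 and 10.04 CPM. In naive CD4+ cells it was at 14.4, 83.3 and 5.09 CPM, and the high value is again that of replicate 2. Of its 10 pairs of neighbouring subsets in order of the mean, 0 were free of overlap, whereas 4 of 10 were for *Tnfrsf4* and 3 of 10 for *Cd40lg*.

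The same contrast was tested subset by subset. SP/naive Tregs against naive CD4+ cells gave 2 calls among the 8 genes, against 0.264% of all genes, *Tnfrsf4* (log2 fold change 2.27, SE 0.42, adjusted p = 0.000249) and *Tnfrsf18* (2.23, SE 0.56, adjusted p = 0.0367). SP/CD127-/lo Tregs against tolerant CD4+ cells gave *Tnfrsf4* (2.54, SE 0.43, adjusted p = 1.39e-05) and *Tnfrsf9* (3.33, SE 0.83, adjusted p = 0.0301), against 0.284%. *Icos* (adjusted p = 0.00761), *Tnfrsf18* (0.0014) and *Tnfrsf1b* (0.000254) were also called there with the compared libraries alone, and *Tnfrsf1b* with DESeq2 (0.024). SP/CD127hi Tregs against tolerant CD4+ cells gave 0 of 8, against 0.324%, although 4 of the 8 had an unadjusted p under 0.05. The likelihood ratio test also called 0, and DESeq2 called *Cd40lg* and *Tnfrsf1b* (adjusted p = 0.0177). *Tnfrsf1b* came nearest in the edgeR test (3.32, SE 0.89, adjusted p = 0.066) and was called without the filter (0.0444). *Tnfrsf4* (1.42, SE 0.41, adjusted p = 0.127) was called there without the filter (0.0155), with the compared libraries alone (0.0205), with legacy = FALSE (0.00506), and without SP/CD127hi replicate 2 (0.029) or 3 (0.027), and its groups did not overlap. Graft Tregs against naive CD4+ cells gave *Tnfrsf4* (3.07, SE 0.44, adjusted p = 4.35e-08) and *Tnfrsf18* (2.85, SE 0.57, adjusted p = 0.000767), against 0.619%. *Icos* missed the threshold there (1.47, SE 0.41, adjusted p = 0.0603) and was called with RLE scaling (0.0362), without the filter (0.0271), with legacy = FALSE (0.00742), and without naive CD4+ replicate 1 (0.0493) or 3 (0.0248) or graft replicate 3 (0.0262). *Cd40lg* had log2 fold changes of -2.76, -2.60, -2.56 and -2.12 in these 4 comparisons, with adjusted p between 0.0568 and 0.167, and its groups did not overlap in any of them. DESeq2 called it in all 4 (adjusted p = 2.84e-10, 8.13e-09, 4.66e-09 and 4.76e-06), as did the fits of the compared libraries alone. The *Tnfrsf18* call in SP/naive Tregs was lost without naive CD4+ replicate 2 or without SP/naive Treg replicate 1 or 3 (adjusted p up to 0.494), and the *Tnfrsf9* call without any 1 of the 6 libraries except tolerant CD4+ replicate 2 (up to 0.325). Among 10 other ways of testing, the *Tnfrsf4* call was lost in 4 for SP/naive Tregs, DESeq2 and the likelihood ratio test included (adjusted p up to 0.626), and in 3 for SP/CD127-/lo Tregs (up to 0.421), the *Tnfrsf18* call in SP/naive Tregs in 5 (up to 0.251), the *Tnfrsf9* call in 3 (up to 0.18), and the *Tnfrsf4* call in graft Tregs with robust estimation (0.206). The Treg effect in naive mice was also set against that in tolerant mice, SP/naive against SP/CD127-/lo, and 0 of 8 genes differed by edgeR (0 at an unadjusted p under 0.05, 0 by the likelihood ratio test and 0 by DESeq2), against 0.11% of all genes.

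*Tnfrsf4* and *Tnfrsf18* are neighbours on chromosome 4, at 156013843-156016612 and 156026164-156028895 on the plus strand, with 9.551 kb between them. *Tnfrsf9* lies at 150914562-150946102 on the plus strand and *Tnfrsf1b* at 145213463-145246870 on the minus strand of the same chromosome. *Tnfrsf18* shares 414 exonic bases, 27.2% of its merged exons, with the antisense gene *Gm16008*, and since the counting took no account of strand, reads of the 2 genes cannot be told apart there. The start regions of *Tnfrsf4*, *Tnfrsf18* and *Tnfrsf9* are shown because these 3 genes were called in Tregs against CD4+ cells subset by subset. They are 300 bases each from the RefSeq promoter table on GRCm38.p6, read on the plus strand, with 250 bases before the start site, and capitals mark matches to the kappa B motif or the AP-1 motif TGANTCA.

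*Tnfrsf4*, chr4:156013445-156013744: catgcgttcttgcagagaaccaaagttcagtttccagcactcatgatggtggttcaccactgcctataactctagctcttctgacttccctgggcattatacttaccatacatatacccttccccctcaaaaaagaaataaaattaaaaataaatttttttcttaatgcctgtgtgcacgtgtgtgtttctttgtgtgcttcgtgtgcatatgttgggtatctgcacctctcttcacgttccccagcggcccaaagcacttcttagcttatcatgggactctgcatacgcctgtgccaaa
*Tnfrsf18*, chr4:156026072-156026371: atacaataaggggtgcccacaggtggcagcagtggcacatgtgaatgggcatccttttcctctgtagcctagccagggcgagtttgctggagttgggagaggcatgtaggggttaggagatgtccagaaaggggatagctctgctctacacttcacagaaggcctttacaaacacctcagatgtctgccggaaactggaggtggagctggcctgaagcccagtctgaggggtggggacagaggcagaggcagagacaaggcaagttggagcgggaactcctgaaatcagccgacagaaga
*Tnfrsf9*, second start site, chr4:150927749-150928048: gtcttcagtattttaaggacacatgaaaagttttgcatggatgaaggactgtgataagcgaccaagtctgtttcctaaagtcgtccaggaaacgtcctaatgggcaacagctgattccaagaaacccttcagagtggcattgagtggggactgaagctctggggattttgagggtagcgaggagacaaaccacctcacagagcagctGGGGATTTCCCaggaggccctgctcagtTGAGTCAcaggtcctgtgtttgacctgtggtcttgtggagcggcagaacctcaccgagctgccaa

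The second of 2 listed starts of *Tnfrsf9* held a kappa B match, in 2 overlapping frames from -43 to -33 relative to the start site, and an AP-1 match from -15 to -9, whereas the first start held neither. No match to kappa B, AP-1 or the forkhead motif GTAAACA on either strand lay in the windows of *Tnfrsf4*, *Tnfrsf18*, *Tnfrsf1b* or *Cd27*. Of all 32851 promoters of that length, 8.46% held a kappa B, 7.81% an AP-1 and 3.65% a forkhead match. The table had entries for 5 of the 8 genes, and *Cd28*, *Icos* and *Cd40lg* were not among them. These matches describe letters and say nothing of binding in these cells.

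Among the Tregs of spleen and graft, no difference in the 8 genes passed the test. In a test of any difference among the 4 subsets, 0 of 8 were called by edgeR, against 1.57% of all genes, while *Tnfrsf4* (adjusted p = 0.184) and *Icos* (adjusted p = 0.274) had an unadjusted p under 0.05 and the likelihood ratio test also called 0. *Tnfrsf4* was called without SP/CD127hi replicate 1 (adjusted p = 0.0378) or without graft replicate 3 (0.0353). Pair by pair, 0 of 8 were called between SP/CD127hi and SP/CD127-/lo Tregs (0.0907% of all genes), between SP/CD127hi and SP/naive Tregs (0.0197%) and between SP/CD127-/lo and SP/naive Tregs (0.071%). At an unadjusted p under 0.05 these counts were 1, 0 and 2. Graft Tregs likewise gave 0 of 8 against SP/naive (0.13%), SP/CD127hi (0.103%) and SP/CD127-/lo Tregs (0.0829%), with 2, 1 and 0 at an unadjusted p under 0.05. Neither the likelihood ratio test nor DESeq2 called a gene in these 6 comparisons.

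*Icos* was at 1078, 1016 and 851.9 CPM in SP/CD127-/lo Tregs, above all libraries of SP/naive Tregs (557.2, 370.8 and 559.9 CPM) and of SP/CD127hi Tregs (623.9, 714.4 and 482.3 CPM). Its log2 fold change was 0.99 (SE 0.40, adjusted p = 0.695) against SP/naive Tregs and 1.07 (SE 0.41, adjusted p = 0.353) for graft against SP/naive Tregs. *Tnfrsf4* was higher in SP/CD127-/lo than in SP/CD127hi Tregs by 1.12 on the log2 scale, with overlapping groups (SE 0.41, adjusted p = 0.476). *Tnfrsf9* did not overlap between these subsets, with 204.6 CPM as the lowest SP/CD127-/lo and 160.5 CPM as the highest SP/CD127hi value (adjusted p = 0.778). T cell markers were also lower in SP/CD127hi Tregs, with sums of 7345 to 7502 CPM against 11151 to 18123 CPM, and 3 of 11 were called, *Cd3d* (-1.36, adjusted p = 0.00834), *Cd3g* (-1.43, 0.0107) and *Cd2* (-1.89, 0.0247). Their part in these differences was not tested.

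In the DLN, *Cd40lg* was the 1 gene of the 8 that differed among the 3 Treg subsets (adjusted p = 4.03e-07), against 1.57% of all genes. DLN/CD127hi libraries held 1, 0 and 0 read pairs of *Cd40lg*, or 0.973, 0 and 0 CPM, whereas 3 counts over the group would be 0.920 CPM. Against DLN/naive Tregs the ratio from summed counts was 161 (95% interval 28.7 to 6399; log2 fold change -7.15, SE 1.07, adjusted p = 4.41e-07), and against DLN/CD127-/lo Tregs it was 193 (34.3 to 7641; log2 fold change -7.32, SE 1.07, adjusted p = 3.5e-07). *Cd40lg* was 1 of 8 genes called in each comparison, against 0.951% and 0.418% of all genes. Between DLN/CD127-/lo and DLN/naive Tregs 0 of 8 were called by edgeR, against 0.355%, with 1 of 8 at an unadjusted p under 0.05 and 0 by the likelihood ratio test and by DESeq2.

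*Cd3e* averaged 240.8 CPM in DLN/CD127hi Tregs, against 263.9 CPM in DLN/CD127-/lo and 260.3 CPM in DLN/naive Tregs, and *Icos* was at 702.8, 349.1 and 1812 CPM. Their totals lay between 854775 and 1163085 read pairs, and myeloid markers summed to between 599.6 and 898.4 CPM in them, against 4.20 to 429.2 CPM in DLN/naive and 102.2 to 747.7 CPM in DLN/CD127-/lo Tregs. B cell markers summed to between 142.0 and 442.9 CPM, against 5.58 to 39.1 and 79.0 to 195.1 CPM, and 3 of 6 were called higher than in DLN/naive Tregs, *Cd79b* (7.70, adjusted p = 1.51e-07), *Cd22* (4.69, 0.0016) and *Ms4a1* (4.06, 0.00583). DLN/CD127-/lo replicate 2 had a lower total of 844039 read pairs and a myeloid sum of 747.7 CPM, and held 43 read pairs of *Cd40lg*. The 2 CD8 T cell markers summed to 185.9, 1.58 and 120.3 CPM in DLN/CD127hi replicates 1 to 3, to at most 10.4 CPM in DLN/CD127-/lo and to 0, 0 and 70.1 CPM in DLN/naive libraries, with *Cd8b1* called higher than in DLN/naive (10.29, adjusted p = 7.4e-05) and *Cd8a* than in DLN/CD127-/lo Tregs (6.63, adjusted p = 0.013). The part of these values in the *Cd40lg* result was not tested. In the spleen *Cd40lg* was at 84.1, 63.7 and 46.9 CPM in CD127hi and at 91.8, 40.8 and 56.6 CPM in CD127-/lo Tregs (log2 fold change 0.04, SE 0.68, adjusted p = 1). The CD127hi effect differed between spleen and DLN by 7.36 on the log2 scale (SE 1.29, adjusted p = 0.000123), for 1 of 8 genes against 0.118% of all genes. The *Cd40lg* calls within the DLN and this interaction were lost with legacy = FALSE and when only the libraries compared were fitted (adjusted p up to 0.794).

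The ligands of these receptors were for the most part low in the sorted cells. Of 9 ligand genes tested, counting CD40, the receptor of CD40 ligand, 0 were called by edgeR in either comparison of tolerant with naive Foxp3- cells, with 0 (CD45+CD4-) and 1 (CD4+) at an unadjusted p under 0.05. *Cd40* averaged 96.6 CPM in naive and 148.2 CPM in tolerant CD45+CD4- cells, where B cells express it, and 0.977 CPM in naive CD4+ cells (log2 fold change -6.55, SE 1.65, adjusted p = 0.0132, CD4+ against CD45+CD4-). *Cd80* averaged 6.29 CPM and *Cd86* 63.1 CPM in naive CD45+CD4- cells, and 7.90 and 71.0 CPM in tolerant ones. Neither target of CTLA4-Fc was called there. *Cd86* was higher in splenic Tregs than in splenic CD4+ cells (2.12, SE 0.60, adjusted p = 0.0362), the 1 ligand of 9 called in that contrast. Myeloid and B cell markers moved with it: 3 of 8 myeloid markers were called higher in the Treg libraries, *Lyz2* (6.76, adjusted p = 2.21e-14), *Csf1r* (5.36, 0.0163) and *C1qc* (5.87, 0.0175), as was 1 of 6 B cell markers, *Cd79b* (2.21, 0.00922). The myeloid sums ran from 8.30 to 308.5 CPM in splenic Treg and from 0 to 30.2 CPM in splenic CD4+ libraries, and their part in the *Cd86* result was not tested.

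The coinhibitory receptor *Ctla4*, which lies between *Cd28* and *Icos* and competes with CD28 for its ligands, was the 1 of 5 coinhibitory genes called in splenic Tregs against splenic CD4+ cells, where 1.83% of all genes were (2.97, SE 0.35, adjusted p = 3.48e-12). It averaged 73.9 and 96.4 CPM in naive and tolerant CD4+ cells and 482.1 to 966.1 CPM in the splenic Treg subsets. Among genes listed for CD28 and ICOS signalling, the kinases *Lck* (-0.78, SE 0.17, adjusted p = 0.000857) and *Pdk1* (-1.62, SE 0.35, adjusted p = 0.000998) were lower in splenic Tregs, and none was called higher. *Pdk1* here is the mitochondrial pyruvate dehydrogenase kinase by its symbol. Of 22 TRAF and NF-kB genes, the inhibitor *Nfkbia* rose (1.204, SE 0.30, adjusted p = 0.00922) and no other was called, and of 17 other TNF receptors *Tnfrsf8* (CD30) rose (6.02, SE 1.47, adjusted p = 0.00738). With 1.83% of all genes called, 1 of 22 and 1 of 17 lie near the background. Among CD4+ against CD45+CD4- cells of naive mice the B cell receptors *Tnfrsf13b* (-3.78, SE 1.06, adjusted p = 0.0441) and *Tnfrsf13c* (-8.33, SE 1.68, adjusted p = 0.000354) were lower. In tolerant against naive CD45+CD4- and CD4+ cells, 0 of 67 genes of these 5 lists were called by edgeR, with 6 and 4 at an unadjusted p under 0.05, and no other tool was run on the lists.

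The genes whose level followed each of the 8 most closely were taken over the 24 spleen and graft libraries, among 8626 genes with a mean of at least 10 CPM, by Pearson's r of log2 CPM. These values describe libraries that share cell type and depth. *Cd28* was closest to *Skap1* (r = 0.96), *Cd40lg* (0.94) and *A630023P12Rik* (0.94), and *Cd40lg* to *Cd28*, *Lck* (0.92) and *Ms4a6b* (0.92). *Icos* was closest to *Izumo1r* (0.94), *Tnfrsf4* (0.94) and *Iigp1* (0.93), and *Tnfrsf4* to *Rgs1* (0.95), *Icos* and *2010111I01Rik* (0.93). *Cd27* followed the T cell genes *Lat* (0.95), *Gimap4* (0.92) and *Cd3e* (0.91). *Tnfrsf9* was closest to *Ctla4* (0.91), *Cst7* (0.90) and *Ttn* (0.90), and *Tnfrsf18* to *Tigit* (0.90), *Ikzf2* (0.88) and *Ikzf4* (0.88), of which *Ctla4*, *Tigit* and *Ikzf2* are known Treg genes. *Tnfrsf1b* had the weakest partners, *Itih5*, *Slc22a15* and *Grik5* (0.80 each), and its r with the other 7 genes ran from -0.17 with *Cd40lg* to 0.53 with *Tnfrsf9*.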

How the data were processed

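RNA from 33 sorted, pooled samples, 3 for each of 11 subsets, was made into SMART-Seq v4 and Nextera XT libraries. The authors trimmed and checked the reads (Trim Galore and FastQC), aligned them with STAR to mm10 with the EGFP sequence added, and deposited raw read counts per gene, without normalization; versions are not given in the sources used here. The counts of read pairs from either strand were used, and the 4 lines of reads without a gene were left out of library sizes; reads on no feature made up between 13.2% and 49.0% of a library. The 25347 genes that reached 1 CPM in any library entered edgeR 4.0.16 in R 4.3.3, for its quasi-likelihood F test with TMM scaling, in 1 fit of all 33 libraries with a mean per subset. P-values were Benjamini-Hochberg adjusted over all genes tested and called below 0.05; the standard error is the log2 fold change over the square root of F. Log2 CPM used a prior count of 2.

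The 8 genes and all gene lists were chosen with earlier results of these data known. Named beside them were up to 4 called genes of each list with the smallest adjusted p, Ctla4, Cd40, Cd80 and Cd86, the defining marker of each cell type, and for each of the 8 genes the 3 most correlated genes; Ddx3y was named after its values were seen. A result of a pathway list is not reported here. Alternatives were RLE size factors, no filter, at least 10 counts in 3 libraries, the likelihood ratio test, DESeq2 1.42.0, the compared libraries alone, a replicate block and leaving out each library. Fits with legacy = FALSE and with robust = TRUE and the ratios to Cd3e were added after the data were seen. Counts were also simulated for tolerant against naive CD45+CD4- cells (20628 genes), with 1 mean per gene over all subsets and a spread set by level alone. There the test recovered 1% of 100 genes changed 4-fold and 42% of 100 genes changed 16-fold, with 0 false calls. In the data *Cd28* (-1.89) and *Icos* (-1.95) were called at less than 4-fold. The simulated shares belong to their setting and do not measure the power or error rate of the reported test. Libraries of a group differed by more than counting noise, so that none was taken for a second deposit of another, which does not show that they are independent.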

Additional observations from a re-analysis of the deposited data

Results flagged for a closer look

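The change of *Cd40lg* between tolerant and naive mice differed between cell types by an interaction test: 7.02 on the log2 scale (CD4+ minus CD45+CD4-, edgeR adjusted p = 0.00024). That of *Tnfrsf4* differed in the same test by 3.24 (adjusted p = 0.000983). The difference of *Cd40lg* between CD127hi and CD127-/lo Tregs was not the same in spleen and DLN, with 7.36 on the log2 scale (spleen minus DLN, adjusted p = 0.000123). The *Tnfrsf4* interaction was lost under 5 of 10 alternative ways of testing (adjusted p up to 0.863), that of *Cd40lg* in tolerance under 1 of 10 (up to 0.402) and that of *Cd40lg* in CD127hi Tregs under 2 of 10 (up to 0.174). Groups of 3 libraries were not tested for outlying samples.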

How the results depend on the processing

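No called value changed sign. Of the 8 genes, 4 were called in tolerant against naive Foxp3- cells (both cell types counted), which became 1 with the likelihood ratio test, 2 with DESeq2, 2 with at least 10 counts in 3 libraries, 1 with robust estimation, 0 with the compared libraries alone and 2 to 4 when single libraries were left out. The 4 calls in CD4+ against CD45+CD4- cells became 2 with robust estimation and stayed at 4 with libraries left out. There *Cd28* was lost with the likelihood ratio test (adjusted p = 0.0568), and *Cd27* was added with DESeq2 (0.0206), the stricter filter (0.0432) and legacy = FALSE (0.0365). The 6 calls over the 4 comparisons of Tregs with CD4+ cells became 3 with the likelihood ratio test, 10 with DESeq2, 16 with legacy = FALSE, 1 with robust estimation, 14 with the compared libraries alone and 5 to 9 with libraries left out. Between DLN Tregs, 2 calls became 0 with legacy = FALSE and 0 with the compared libraries alone, as did the 1 call of the CD127hi interaction (0 and 0) and the 1 call among the 3 DLN subsets (0 and 0). The 2 calls of the tolerance interaction became 1 with the likelihood ratio test, DESeq2, the stricter filter, legacy = FALSE, robust estimation or the compared libraries alone, and 2 to 3 with libraries left out. Among the 4 spleen and graft Treg subsets, 0 calls became 1 without the filter and 1 with legacy = FALSE, and 0 to 1 with libraries left out. Splenic Tregs against CD4+ cells gave 5 to 6 calls with libraries left out and the test over 8 subsets 7 to 8. The cause of these changes was not tested. RLE scaling shifted naive CD4+ against CD45+CD4- cells by -0.128 on the log2 scale and DLN/CD127hi and DLN/CD127-/lo against DLN/naive Tregs by 0.18 and 0.119, and turned the sign of 2 uncalled values given below. The fit with legacy = TRUE is the tool's default and gave the reported values. DESeq2 was not run for the 3 tests over several subsets.

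The labels number the replicates of each subset 1 to 3. Correlations of same-numbered libraries' deviations lay between -0.0807 and 0.0942, and every pair was over 0.1 in 0 of 16 comparisons, so that the numbers reveal no pairing. This does not show that the subsets came from separate mice. By the numbers of mice and pools that the paper gives, subsets of tolerant mice share animals. The main fit treats their libraries as independent. With a replicate block, the calls of *Tnfrsf4* (adjusted p = 0.0082) and *Tnfrsf1b* (0.0345) in SP/CD127hi Tregs against CD4+ cells, of *Icos* in graft Tregs (0.00618) and of *Icos* in splenic Tregs (0.0382) were added, and none was lost. Whether each library correlated best with its own number was not computed. Depth limits *Cd40lg* in the DLN, where 3 counts are up to 3.55 CPM in a library before TMM scaling.

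Of the log2 fold changes, 1 per gene and comparison or interaction, 49 changed sign under at least 1 alternative, none of them called with either sign (adjusted p of at least 0.786), so that no direction is drawn from them. Of these 104 sign changes, 92 came with a library left out. *Tnfrsf9* became 0.0005 (tolerant against naive CD4+ cells) and 0.0796 (SP/CD127hi against SP/naive Tregs), *Tnfrsf1b* -0.042 (graft against SP/naive Tregs) and *Cd27* -0.054 (DLN/CD127-/lo against DLN/naive Tregs) with a replicate block. *Tnfrsf1b* in naive CD4+ against CD45+CD4- cells became 0.065 with the stricter filter, 0.022 with legacy = FALSE and 0.0074 with the compared libraries alone, which also gave -0.038 for *Cd27* in the DLN. DESeq2 and RLE scaling gave -0.034 and -0.037 for *Cd40lg* in the splenic CD127hi Tregs (against CD127-/lo) and 0.0006 each for *Tnfrsf9* in graft against SP/CD127hi Tregs. With single libraries left out, these log2 fold changes had the following ranges. Tolerant against naive CD45+CD4- cells ran from -0.13 to 1.75 for *Tnfrsf1b*. Tolerant against naive CD4+ cells ran from -0.30 to 0.37 for *Icos*, from -0.23 to 0.087 for *Cd40lg*, from -0.88 to 0.29 for *Tnfrsf9* and from -1.82 to 0.50 for *Tnfrsf1b*. Naive CD4+ against naive CD45+CD4- cells ran from -1.83 to 1.31 for *Tnfrsf1b*. SP/naive Tregs against naive CD4+ cells ran from -0.36 to 0.24 for *Cd27*. SP/CD127hi against SP/CD127-/lo Tregs ran from -0.077 to 0.33 for *Cd28*, from -0.19 to 0.41 for *Cd40lg* and from -0.08 to 0.43 for *Tnfrsf1b*. SP/CD127hi against SP/naive Tregs ran from -0.13 to 0.27 for *Cd28*, from -0.28 to 0.22 for *Cd27*, from -0.052 to 0.37 for *Cd40lg*, from -0.68 to 0.26 for *Tnfrsf4*, from -0.44 to 0.52 for *Tnfrsf9* and from -0.75 to 0.10 for *Tnfrsf18*. SP/CD127-/lo against SP/naive Tregs ran from -0.17 to 0.081 for *Cd28*, from -0.082 to 0.42 for *Cd27* and from -0.24 to 0.37 for *Cd40lg*. Graft against SP/naive Tregs ran from -1.04 to 0.48 for *Tnfrsf9* and from -0.83 to 0.70 for *Tnfrsf1b*. Graft against SP/CD127hi Tregs ran from -1.02 to 0.38 for *Tnfrsf9* and from -1.44 to 0.0037 for *Tnfrsf1b*. Graft against SP/CD127-/lo Tregs ran from -0.17 to 0.021 for *Cd28*, from -0.13 to 0.30 for *Icos*, from -0.44 to 0.37 for *Tnfrsf4*, from -0.27 to 0.52 for *Tnfrsf18* and from -1.33 to 0.12 for *Tnfrsf1b*. DLN/CD127hi against DLN/naive Tregs ran from -0.20 to 1.43 for *Icos*, from -1.47 to 0.041 for *Tnfrsf9* and from -0.75 to 0.095 for *Tnfrsf18*. DLN/CD127-/lo against DLN/naive Tregs ran from -0.34 to 0.36 for *Cd27*, from -0.091 to 0.64 for *Cd40lg*, from -0.69 to 0.13 for *Tnfrsf9*, from -0.80 to 0.22 for *Tnfrsf18* and from -0.15 to 0.66 for *Tnfrsf1b*. DLN/CD127hi against DLN/CD127-/lo Tregs ran from -0.17 to 0.54 for *Cd28*, from -0.94 to 0.34 for *Icos*, from -0.71 to 0.024 for *Tnfrsf4*, from -1.17 to 0.27 for *Tnfrsf9* and from -0.60 to 0.55 for *Tnfrsf18*. The CD127hi interaction ran from -0.36 to 0.36 for *Cd28*, from -1.07 to 0.25 for *Icos* and from -1.46 to 0.0196 for *Tnfrsf9*. The tolerance interaction ran from -3.07 to 0.098 for *Tnfrsf1b*. The Treg effect in naive less that in tolerant mice ran from -0.40 to 0.21 for *Cd40lg*, from -0.81 to 0.12 for *Tnfrsf4*, from -0.22 to 0.77 for *Tnfrsf18* and from -2.34 to 0.0038 for *Tnfrsf1b*.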
